A study of Homo sapiens with 6 samples.

Results

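Chromosomes 4, 13 and 18 were the autosomes with the fewest protein-coding genes for their length, and the NFATc2 islands on them are described here. All rows of the island list on these chromosomes were taken, 4707 of the 32760 islands (14.4%), with 2301 on chromosome 4, 2338 on chromosome 13 and 68 on chromosome 18. The islands were set against the 27976 islands on the other 19 autosomes. The experiment used untreated THP-1 cells, a human acute myeloid leukaemia line with the MLL-AF9 fusion, with 3 libraries of DNA precipitated by an NFAT1 (NFATc2) rabbit monoclonal antibody and 3 libraries of Input DNA, for which no antibody was used. Cells had no treatment, and 11000000 were fixed per IP with 1% formaldehyde for 10 min. Enriched islands were called by the authors with epic2 on all libraries together, at a false discovery rate (FDR) below 0.05, so there is no value per replicate and no spread between replicates can be given. As THP-1 is a single line, the values hold for its own karyotype.

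NFATc2 is a transcription factor that is held in the cytoplasm in phosphorylated form, and enters the nucleus once calcineurin, a phosphatase switched on by calcium, has removed the phosphates. Transcription factors of this kind mostly bind short DNA motifs, whereas epic2 is built for broad signal: it joins enriched windows into islands. Gene-poor chromosomes replicate late over much of their length, and chromosome 18 is a textbook example of a chromosome that lies towards the nuclear edge, in contrast to gene-dense chromosome 19.

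In the reference annotation (GRCh38, used only for totals per chromosome), chromosome 13 had 2.96 protein-coding genes per Mb, chromosome 18 had 3.36 and chromosome 4 had 4.04, against 24.8 on chromosome 19. These were the lowest values of the 22 autosomes, so the name gene-poor holds. Their GC content was 38.6%, 39.8% and 38.2% in the same order.

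The chromosomes did not share a density of islands. Chromosome 13 had 20.4 islands per Mb, the second highest of the 22 autosomes after chromosome 6 with 30.6. Chromosome 4 had 12.1 per Mb, sixth among them, and chromosome 18 had 0.85 per Mb, where only chromosome 22 was lower, at 0.53. These lengths include unknown bases. Per Mb of known bases, chromosome 13 had 23.9 islands and ranked 2, and chromosome 4 had 12.1 and ranked 7. By length alone 1300 islands were predicted on chromosome 13, 2162 on chromosome 4 and 914 on chromosome 18, so that they held 1.80, 1.06 and 0.074 times their prediction. The most and the least gene-dense chromosome of the trio, 4 and 13, thus lay on the same side of the prediction, and chromosome 18 lay between them in genes and far below both in islands. Together the chromosomes made up 13.4% of autosomal length and held 14.4% of the autosomal islands. The mean over the 3 chromosomes was 11.1 islands per Mb with an SD of 9.83, and 9.55 with an SD of 7.08 over the other 19. The difference of 1.58 was smaller than the spread on either side (two-sided exact permutation test over the 22 autosomes, p = 0.74, adjusted p = 0.92 over 9 measures). This test takes chromosomes as units because neighbouring islands are not independent. Across all 22 autosomes, islands per Mb had a Pearson r of -0.30 and a Spearman rho of -0.29 with genes per Mb. With GC content they were -0.52 and -0.57. These are descriptions, as all points share the same pooled libraries and caller threshold.

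**Figure D1:**
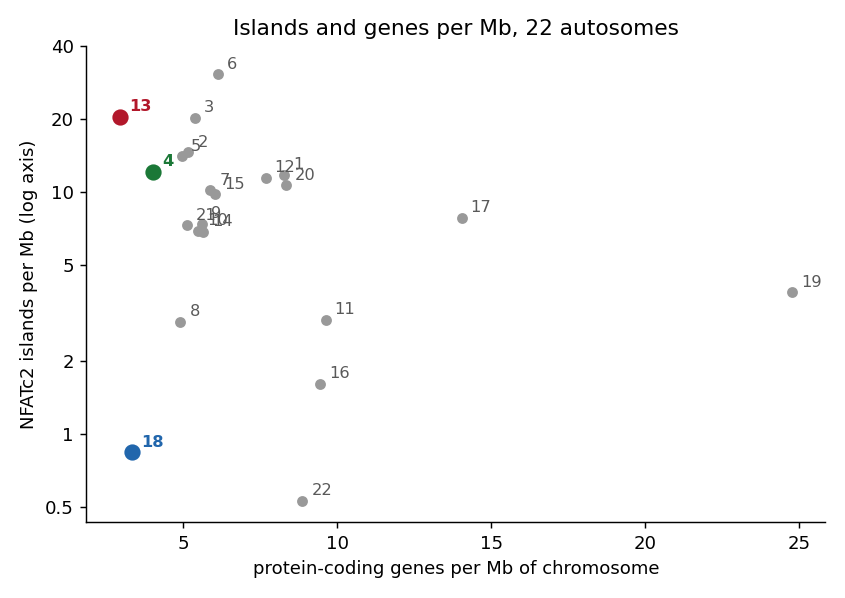
NFATc2 islands per Mb (y axis, log scale) against protein-coding genes per Mb (x axis) for the 22 autosomes, each point a chromosome marked with its number. Chromosomes 13, 18 and 4 (coloured) are the 3 points at the far left, and stand at 20.4, 0.85 and 12.1 islands per Mb.

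The bases covered followed the same order. Islands covered 13.5 Mb of chromosome 13 (11.8% of its length), 11.7 Mb of chromosome 4 (6.15%) and 0.318 Mb of chromosome 18 (0.395%). Over the 3 chromosomes together 6.63% of the length was covered, against 6.51% on the other autosomes.

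Single islands were of much the same width on the 3 chromosomes. The median width was 4.8 kb on chromosome 4 (quartiles 3.8 and 6 kb), 5 kb on chromosome 13 (3.8 and 6.8 kb) and 4.7 kb on chromosome 18 (3.8 and 5.8 kb), and it was 4.8 kb on the other autosomes together. The mean of the per-chromosome medians was 4.83 kb here and 4.68 kb elsewhere (adjusted p = 0.92, exact permutation test). Islands of 10 kb or more were 197 of 2338 on chromosome 13 (8.43%), 52 of 2301 on chromosome 4 (2.26%) and 1 of 68 on chromosome 18 (1.47%), against 2417 of 27976 (8.64%) on the other autosomes. Chromosome 13 lay near that share, and chromosomes 4 and 18 were below it. Narrow islands, of 1000 bp or less, numbered 2 on chromosome 4, 2 on chromosome 13 and 5 on chromosome 18, which is 0.087%, 0.086% and 7.35% of the islands there. On the other autosomes together 130 islands (0.465%) were narrow, against 9 of 4707 (0.191%) on the 3 chromosomes together. By the mean of shares per chromosome, 2.51% here and 1.95% elsewhere, the difference was not larger than the spread (adjusted p = 0.92, exact permutation test).

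Enrichment ran opposite to density, and this was not particular to these chromosomes. Across the 22 autosomes, islands per Mb and median log2 fold change had a Pearson r of -0.62 and a Spearman rho of -0.67. Over the other 19 alone the Spearman rho was -0.73. These values are descriptions. The fold change given by the authors, on a log2 scale and relative to scaled input, had a median of 0.60 on chromosome 18 (quartiles 0.45 and 0.76), the highest of the 22 autosomes. It was 0.48 on chromosome 4 (0.36 and 0.62), which ranked 4, and 0.37 on chromosome 13 (0.28 and 0.49), which ranked 18. For a single island, counting alone gave this value a median standard error of 0.17, 0.16 and 0.15 in the same order. The mean of the medians was 0.49 on the 3 chromosomes and 0.42 on the other 19, a difference of 0.07 that did not pass the test (exact permutation p = 0.080, adjusted p = 0.48). Without chromosome 13, chromosomes 4 and 18 had a mean of 0.54, a difference of 0.12 (exact permutation p = 0.014, adjusted p = 0.086), and without chromosome 18 the difference was 0.01.

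A log2 fold change above 1, the threshold the study used for its peaks, was passed by 44 islands on chromosome 4, 13 on chromosome 13 and 6 on chromosome 18. These are 1.91% (95% exact interval 1.39 to 2.56), 0.556% (0.296 to 0.949) and 8.82% (3.31 to 18.2) of the islands there, against 1.58% of all islands in the list and 1.58% on the other autosomes. These intervals treat islands as independent and cover counting error only. Chromosome 13 had the lowest share of the 22 autosomes and chromosome 18 the second highest, while chromosome 4 lay near the background. The shares of the trio lay on both sides of the 1.58% of the other autosomes together. The mean of the 3 shares, 3.76%, did not differ from the mean of 3.11% over the other autosomes beyond the spread (adjusted p = 0.92, exact permutation test). With all islands pooled the difference had the other sign, as 63 of 4707 islands here (1.34%) passed the threshold.

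The excess on chromosome 13 fell as the fold threshold rose. Counting all islands it held 1.80 times the number that length predicts, above a log2 fold change of 0.5 it held 1.46 times (556 islands), above 0.75 it held 1.28 times (118), and above 1 it held 0.65 times, with 13 islands where 20.1 were predicted. Chromosome 4 moved the other way, from 1.06 times for all islands to 1.66 times above 0.5 (1053 islands) and 1.81 times above 0.75 (277), where it ranked second of the autosomes, and then 1.32 times above 1. Chromosome 18 stayed low at each of these thresholds, but rose from 0.074 times to 0.17, 0.28 and 0.42 times. Above 1.5 the counts were 2, 0 and 1 on chromosomes 4, 13 and 18, too few to compare. The thresholds are nested, so these values are not independent of each other. With a stricter FDR chromosome 13 kept most of its excess: it held 1.59 times its prediction below an FDR of 0.001 (968 islands) and 1.52 times at a −log10 FDR above 5 (343 islands). Chromosome 4 rose to 1.38 and 1.58 times and chromosome 18 to 0.12 and 0.19 times. Below 0.001, 76.5% of the islands on chromosome 18 were kept, 60.5% on chromosome 4 and 41.4% on chromosome 13, against 46.1% on the other autosomes.

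**Figure D2:**
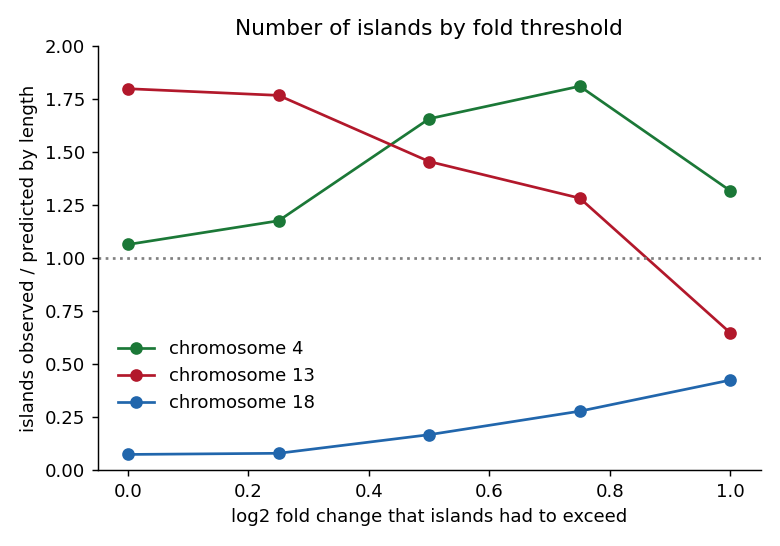
Islands observed over islands predicted by length (y axis) for islands above each log2 fold change (x axis) on chromosomes 4, 13 and 18; the dotted line marks a ratio of 1. Chromosome 13 falls from 1.80 to 0.65, chromosome 4 rises to 1.81 at a threshold of 0.75, and chromosome 18 rises from 0.074 to 0.42.

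Across the 3 chromosomes, the reads per kb behind the islands ran opposite to the fold. Read numbers are those of the pooled libraries, recovered from the deposited fold and p. Islands on chromosome 18 held a median of 33.8 input reads per kb, the lowest of the 22 autosomes, and those on chromosome 4 held 37.4, the second lowest. Islands on chromosome 13 held 43.1, which ranked 4. The IP reads per kb spanned less: 28.5 on chromosome 18, 29.5 on chromosome 4 and 31.8 on chromosome 13. Per island this was a median of 154, 176 and 208 input reads and of 132.5, 137.5 and 153 IP reads. The mean of the medians of input was 38.1 reads per kb on the 3 chromosomes and 41.3 elsewhere (exact permutation p = 0.11, adjusted p = 0.48). Without chromosome 13 the other 2 had a mean of 35.6 (exact permutation p = 0.019, adjusted p = 0.086).

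At equal input the fold was much alike from 30 to 40 reads per kb. Among islands with 30 to 35 input reads per kb, the median log2 fold change was 0.62 on chromosome 4 (551 islands), 0.64 on chromosome 13 (131) and 0.64 on chromosome 18 (21), against 0.62 on the other autosomes (2593). Among those with 35 to 40 it was 0.46 (984 islands), 0.47 (535) and 0.49 (13), against 0.47 (6596). With 40 to 45 it was 0.37 on chromosome 4 and 0.37 on chromosome 13, as elsewhere (0.37), and 0.45 in the 3 islands of chromosome 18. The outer classes spread more: with 25 to 30 it was 0.81 (96 islands), 0.75 (15) and 0.77 (14), against 0.85 (467), and with 45 to 50 it was 0.36 on chromosome 4 and 0.31 on chromosome 13, against 0.32, and 0.68 in the 2 islands of chromosome 18. The chromosomes differed in how their islands spread over these classes. The class of 30 to 35 reads held 30.9% of the islands on chromosome 18, 23.9% on chromosome 4 and 5.60% on chromosome 13, and that of 45 to 50 held 2.94%, 4.87% and 26.2%. Input is the denominator of the fold, which ties these values together. Across the 22 autosomes, median fold and median input per kb had a Pearson r of -0.90 and a Spearman rho of -0.85. Islands per Mb and median input per kb had 0.54 and 0.50, and the former fell to 0.23 without the 2 chromosomes farthest in input. These too are descriptions. Input is known only inside called islands, so more DNA copies of a region and a change in the IP signal cannot be told apart.

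**Figure D3:**
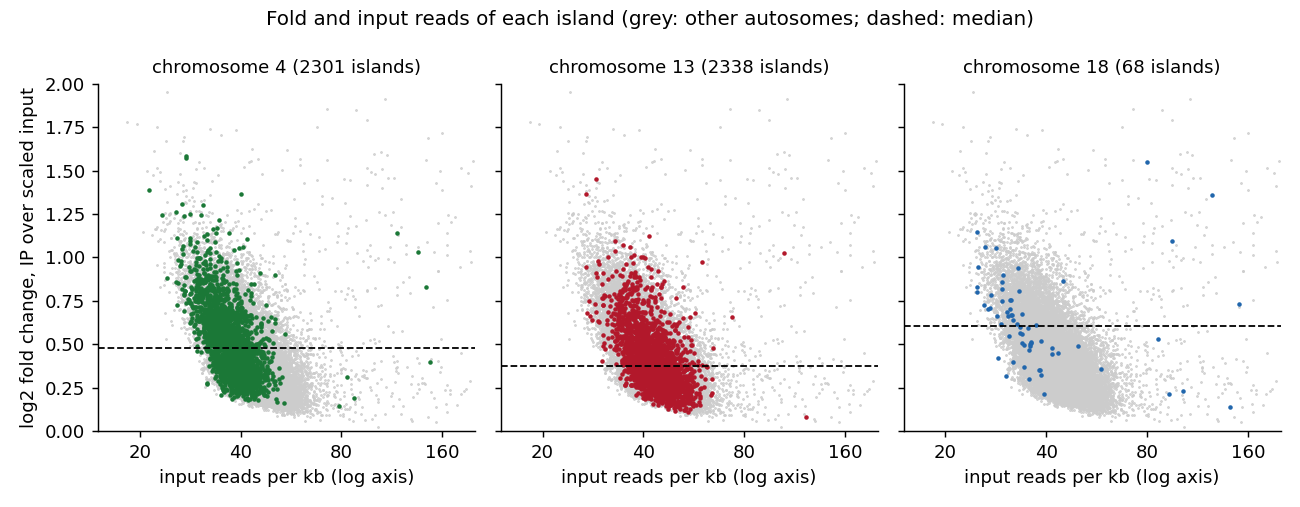
Log2 fold change of each island (y axis) against its input reads per kb (x axis, log scale), with chromosomes 4, 13 and 18 in colour, the other autosomes in grey and a dashed line at the chromosome's median fold. The coloured points overlap the grey cloud, and lie further left for chromosome 18 (median input 33.8 reads per kb) than for chromosome 13 (43.1); 4 islands of chromosome 4, 3 of chromosome 18 and 77 of the others are outside the axes or have no read numbers.

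The fold needed to reach the weakest p in the list differed little at the median input of the called islands. It would be reached with 104 IP reads on chromosome 18, 118 on chromosome 4 and 138 on chromosome 13, which are log2 fold changes of 0.27, 0.26 and 0.24. These values cover only the final p of islands already called. What uncalled regions needed, or the earlier choice of enriched windows, was not tested. Between 0.25 and 0.5 lay 26.5% of the islands on chromosome 18 (18 islands), 49.6% on chromosome 4 (1142) and 61.0% on chromosome 13 (1427), against 57.3% (16020) on the other autosomes.

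The median gap from an island to the next was 17.8 kb on chromosome 13 (quartiles 6.2 and 40.2 kb), 40.6 kb on chromosome 4 (16 and 90.4 kb) and 616 kb on chromosome 18 (170 and 1521 kb), and 21.6 kb on the other autosomes together. The gap was 100 kb or less for 92.4% of neighbours on chromosome 13, 78.0% on chromosome 4 and 17.9% on chromosome 18. No gap on chromosome 13 passed 1 Mb, against 6 on chromosome 4 and 24 of 67 on chromosome 18. The mean of the median gaps was 225 kb here and 73.3 kb on the other 19 autosomes (adjusted p = 0.49, exact permutation test). That mean rests on chromosome 18: without it, chromosomes 4 and 13 had a mean of 29.2 kb, below the other autosomes.

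**Figure D4:**
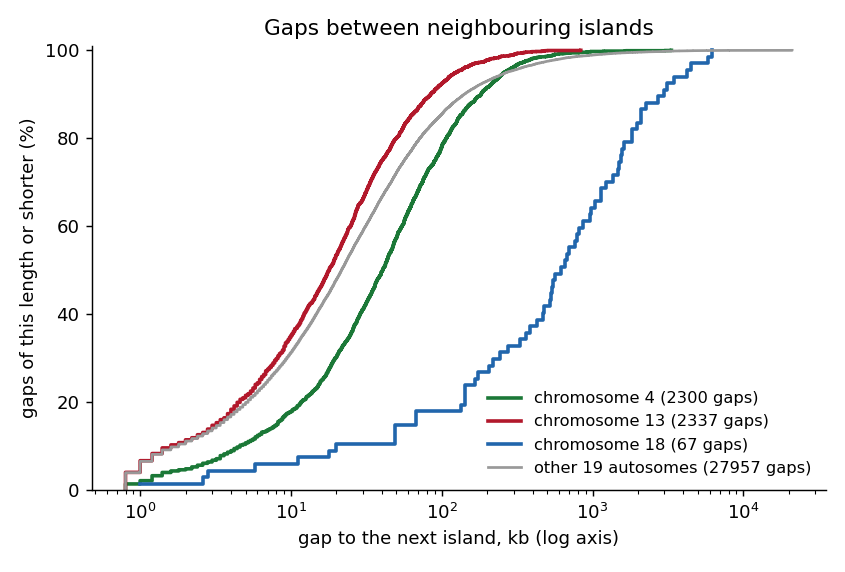
Share of gaps between neighbouring islands (y axis, percent) that are as long as or shorter than the length on the x axis (kb, log scale), for chromosomes 4, 13 and 18 and the other 19 autosomes together. The curve of chromosome 13 (median 17.8 kb) lies left of the grey curve (21.6 kb), that of chromosome 4 (40.6 kb) to its right at the median, and that of chromosome 18 (616 kb) stands apart.

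The longest gaps were of different kinds. Coordinates are in hg19, with the first base counted as 1. On chromosome 18 they ran from 44126601 to 50319000 (6.19 Mb), from 52052601 to 57849800 (5.80 Mb) and from 22029201 to 26552600 (4.52 Mb), all on the long arm. On chromosome 4 they ran from 7182801 to 10517800 (3.33 Mb), from 49660201 to 52676600 (3.02 Mb, at the centromere) and from 3626401 to 5285600 (1.66 Mb). On chromosome 13 the longest gap was 0.836 Mb, from 29556401 to 30392400, followed by 0.502 Mb and 0.482 Mb. The first 15 Mb of chromosome 13, whose short arm is made of satellite and ribosomal DNA, held no island. Only 98.0 Mb of the 114.4 Mb of this chromosome are known bases in GRCh38, and reads cannot be placed on unknown bases. The empty stretch therefore cannot be read as a lack of NFATc2 signal.

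Along chromosome 13 the islands lay in a dense distal part. In bins of 5 Mb, the 7 bins from 20 to 55 Mb held 49 to 86 islands each, and the 11 bins from 55 to 110 Mb held 124 to 205. This split was chosen after the bins were seen, and no test was made of it. Density was 13.5 islands per Mb in the first stretch and 32.7 in the second, with a median gap of 38 kb against 14.4 kb. Log2 fold changes had a median of 0.41 in the first and 0.36 in the second, and input reads per kb were 40 and 44.0. Width was nearly the same, at 4.8 and 5 kb. From bin to bin the densest lay from 90 to 95 Mb, with 205 islands, and in this stretch input was highest from 85 to 90 Mb, with 49.0 reads per kb and a median log2 fold change of 0.29. Past 110 Mb the bins held 54 and 4 islands. The last of these, from 115 Mb, is cut short by the chromosome end (length 114.4 Mb in GRCh38). Its count therefore cannot be compared with those of full bins.

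Chromosome 4 had a smaller variance over mean between its bins than chromosome 13, as given below, but its gaps were not more even. The SD of the gaps divided by their mean was 1.58 on chromosome 13 and 1.89 on chromosome 4. The 39 bins of chromosome 4 held 5 to 105 islands with a median of 62, and the fullest lay from 115 to 120 Mb. Sparse bins lay at both ends, with 11 and 5 islands in the first 10 Mb and 17 and 6 after 185 Mb, and beside the centromere, with 13 from 50 to 55 Mb. This bin from 50 to 55 Mb overlaps the gap at the centromere, which ended at 52676600. Whether reads could be placed in that gap was not tested. The bin with 6 islands, from 190 Mb, is cut short by the chromosome end (length 190.2 Mb in GRCh38). Its count therefore cannot be compared with those of full bins. From 60 to 145 Mb the bins held 49 to 105 islands, 15.4 per Mb. Between these stretches input did not move as it did on chromosome 13: it was 37.5 reads per kb from 10 to 50 Mb and 37.5 from 60 to 145 Mb, at 9.70 and 15.4 islands per Mb. On chromosome 18 the 15 bins up to the last island held 0 to 11 islands, with a median of 5. The bin from 15 to 20 Mb, at the centromere, was the fullest and that from 45 to 50 Mb was empty. No island lay past 75 Mb, where the bins stop (chromosome length 80.4 Mb in GRCh38). The variance of the bins divided by their mean was 33.3 on chromosome 13, 13.2 on chromosome 4 and 2.08 on chromosome 18, where independent placement would give about 1. Chromosomes with more islands per bin can have a higher ratio.

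**Figure D5:**
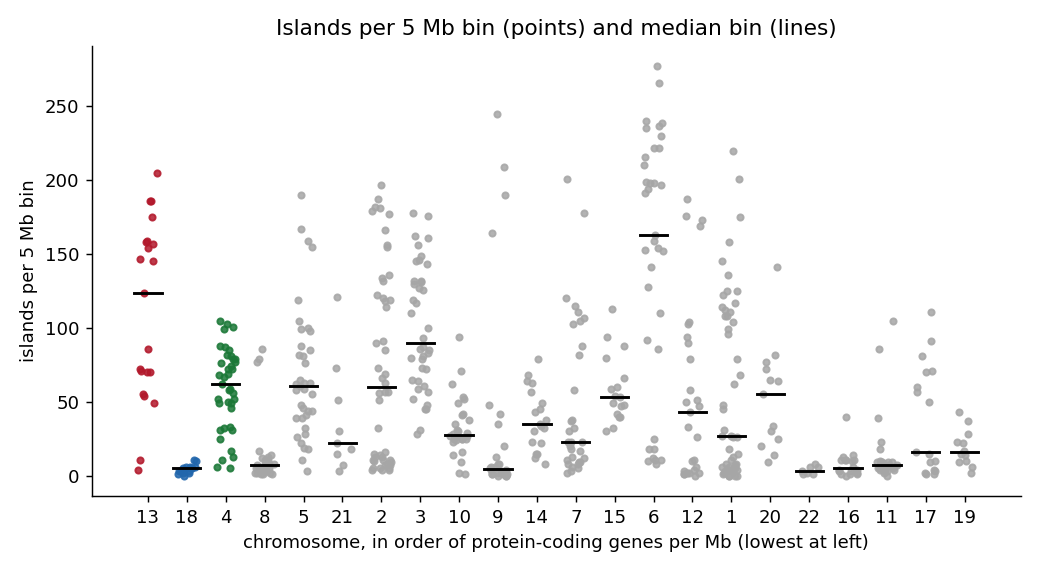
Islands per bin of 5 Mb (y axis) for each autosome (x axis, from the lowest to the highest number of genes per Mb), with a point per bin from the first island to the last and a line at the median bin. The last bin of a chromosome can be cut short by the chromosome end. The medians are 124 on chromosome 13, 5 on chromosome 18 and 62 on chromosome 4, the 3 chromosomes at the left.

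Bins with at least 50 islands held 97.3% of the islands on chromosome 13 (18 of 21 bins), 84.9% on chromosome 4 (26 of 39) and 0% on chromosome 18. The mean share was 60.7% here and 63.1% on the other autosomes (adjusted p = 0.93, exact permutation test). Blocks, defined as at least 10 neighbouring islands with gaps of at most 250 kb, gave the same order. Both shares have fixed cut-offs and depend on how many islands a chromosome holds, so they are not independent of islands per Mb. Spacing is not independent of it either (Spearman rho of -0.83 across the 22 autosomes). Chromosome 13 had 15 blocks with 97.1% of its islands, chromosome 4 had 44 blocks with 88.8%, and chromosome 18 had none. On average 62.0% of a chromosome's islands lay in blocks here and 72.8% elsewhere (adjusted p = 0.92, exact permutation test). These means weight each chromosome alike, whatever its number of islands. With all islands pooled the differences had the other sign. Blocks then held 91.7% of the islands here and 89.0% elsewhere, and dense bins held 89.8% and 84.0%.

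The blocks of chromosome 13 were few and long. The largest ran from 87845601 to 112188600, 24.3 Mb with 793 islands (33.9% of the chromosome's), and its 1 Mb windows held 17 to 56 islands. The next ran from 74907401 to 87549800 (12.6 Mb, 438 islands) and from 53296801 to 65795800 (12.5 Mb, 350 islands). Input reads per kb in these blocks were 45.2, 47.1 and 40.4, and median log2 fold changes 0.36, 0.32 and 0.40. On chromosome 4 the largest block ran from 101316801 to 110154400, 8.84 Mb with 172 islands (7.48%), and its 1 Mb windows held 12 to 25. It was followed by blocks from 113824801 to 119169600 (5.34 Mb, 131 islands) and from 58468001 to 64269000 (5.80 Mb, 123 islands). Their input was 38.4, 38.6 and 37.6 reads per kb, and their folds 0.47, 0.42 and 0.48. Within the largest block, density was 32.6 islands per Mb on chromosome 13 and 19.5 on chromosome 4.

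The strongest islands were modest in fold and read number, and the highest log2 fold change on the 3 chromosomes was 1.58. The strongest of all lay on chromosome 4 from 85999401 to 86001000, where 74 IP and 44 input reads gave a log2 fold change of 1.58, with a 95% interval from counting of 1.02 to 2.15. Close to it were the island from 144577001 to 144579000, at 1.57 (1.08 to 2.08) from 92 and 55 reads, and that from 143742201 to 143745200, at 1.39 (0.91 to 1.87). On chromosome 13 the strongest ran from 56298601 to 56300400, at 1.45 (0.93 to 1.99) from 80 and 52 reads, followed by the one from 70686601 to 70688600, at 1.36 (0.84 to 1.89). On chromosome 18 the first was 600 bp wide, from 29992601 to 29993200, at 1.55 (1.02 to 2.10) from 79 and 48 reads. The second, of 200 bp from 19192201 to 19192400, stood at 1.36 (0.58 to 2.16) from 36 and 25 reads. These intervals overlap throughout, so the order among the strongest islands was not detectable at this depth. The strongest islands differed in how dense their reads were: the first on chromosome 18 held 80 input reads per kb, against 27.5 on chromosome 4 and 28.9 on chromosome 13.

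The widest islands lay in the dense distal part on chromosome 13 and beside the centromere on chromosomes 4 and 18. On chromosome 13 they were 28.6, 28.0 and 28.0 kb wide, lay from 88737401 to 88766000, from 83283601 to 83311600 and from 86178001 to 86206000, and had log2 fold changes of 0.12, 0.15 and 0.19 at 52.8, 50.6 and 48.2 input reads per kb. On chromosome 4 the widest flanked the centromere: 39.2 kb from 49087601 to 49126800, where log2 fold change stood at 0.23 (0.20 to 0.25) for 27160 IP and 41316 input reads, or 1054 input reads per kb. The next, of 32.0 kb from 49130401 to 49162400, is listed at exactly 50 for −log10 FDR, and no whole read number came out for it. On chromosome 18 the widest was 15 kb wide, from 15381601 to 15396600, at 92.8 input reads per kb, also beside the centromere. The island with the most reads there ran from 18510801 to 18520400, where log2 fold change stood at 0.27 (0.25 to 0.29) for 28398 IP and 41876 input reads, 4362 input reads per kb.

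Islands with over 100 input reads per kb were 7 of 68 on chromosome 18 (10.3%, 95% exact interval 4.24 to 20.1), 7 of 2300 on chromosome 4 (0.304%), 2 of 2338 on chromosome 13 (0.086%) and 187 of 27967 on the other autosomes (0.669%). Without them, 61 islands remained on chromosome 18, with a median log2 fold change of 0.62 and 33.2 input reads per kb. The study later removed blacklisted peaks. Which of the islands described here lie in a blacklisted region was not tested.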

How the data were processed

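ChIP-seq reads of NFATc2 IP and Input DNA from THP-1 cells were processed by the authors in Galaxy. The notes of the submitters give hg19 as the build, and BWA 0.7.17.1, Trimmomatic 0.36.5, SICER 0.0.52, SAMtools 1.3.1 and ChIPseeker 1.18.0 as tools. The caller was epic2. The deposited list has no header; it gives per island a score (100 times the next value, rounded down, in all 32760 islands), a log2 fold change, and −log10 of the p and of the FDR, as the authors' caller wrote them. Replicates were pooled before calling.

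Starts, in steps of 200 bp, were written counted from 1. Reads per island were recovered from the authors' fold and Poisson p; input came out whole within 0.02 in 32750 islands (1 of the 10 others is on chromosome 4), with 0.562 expected IP reads per input read. On 2914 simulated islands both numbers were recovered exactly in 100%. Intervals for fold are exact Clopper-Pearson intervals of the IP share. An island with more reads passes the FDR at a smaller fold.

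Chromosome lengths, GC and protein-coding genes are GRCh38 totals. As 14 chromosomes have islands beyond their GRCh38 length, the builds differ and no gene or sequence is assigned to an island. Each of 9 measures was compared by a two-sided exact permutation test of the difference of means over all 1540 ways to choose 3 of 22 autosomes (smallest p 0.00065), with Benjamini-Hochberg adjustment; the tests were tried on simulated data. Named regions are the strongest, widest and most read islands, largest blocks, longest gaps, and fullest and emptiest bins of each chromosome. The chromosomes, measures and lists were chosen with earlier results of these data known. Alternatives were FDR 0.01 and 0.001, merging within 1 kb, chromosomes left out, and other lengths, bins, gaps, widths, folds and summaries. Software was matplotlib 3.10.9, pandas 2.3.3, scipy 1.17.1 and numpy 2.4.6 under Python 3.11.15.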

Additional observations from a re-analysis of the deposited data

How the results depend on the processing

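None of the 9 comparisons of chromosomes 4, 13 and 18 with the other autosomes passed the exact permutation test after adjustment, under the reported settings or in any of 109 alternative values. The lowest adjusted p was 0.086. Without adjustment, 0 of the 9 measures as reported and 5 of the 109 alternative values had a p under 0.05. The difference changed sign in 17 of them. Differences are given as chromosomes 4, 13 and 18 minus the others.
Without chromosome 13 the difference in islands per Mb was -3.08, and without the acrocentric chromosomes it was -4.00. Without chromosome 18 the difference was -44.1 kb in spacing, 27.98 percentage points in the share in dense bins, 20.1 in the share in blocks, -1.88 in the share above a log2 fold change of 1 and -1.87 in the share of narrow islands. The share in dense bins differed by 2.05 points at FDR below 0.01 and by 1.55 without chromosomes 3 and 6, and the share in blocks by 0.70 at FDR below 0.001. The share above the fold threshold differed by -0.49 points at FDR below 0.001 and by -0.25 with a threshold of 1.5. The difference in width was -0.33 kb by the mean, -0.86 kb by the 90th percentile and -0.077 kb without the acrocentric chromosomes. With islands above a log2 fold change of 0.5 alone, chosen after the data were seen, the difference was 5.02 points in the share in blocks and -0.80 in the share of narrow islands. Beyond the chromosomes left out, the cause of these changes was not tested. The order of chromosomes 13, 4 and 18 in islands per Mb was the same at FDR below 0.001 (8.46, 7.32 and 0.65), but chromosome 4 passed chromosome 13 among islands above a log2 fold change of 0.5 (5.54 against 4.86 per Mb), 0.75 (1.46 against 1.03) and 1 (0.231 against 0.114), and at a −log10 FDR above 5 (3.11 against 3.00). The other alternatives chosen after the data were seen (length in known bases, and islands of high input or of 1000 bp or less left out) changed no sign.
No paired analysis was possible because islands were called on pooled libraries, and leaving out a replicate was not possible either.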
